A study of Mus musculus with 2 samples.

Results

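A set of 10 familiar genes for protein synthesis, folding and cell structure was examined in a map of 5-hydroxymethylcytosine (5hmC) from mouse prospermatogonia, which are precursors of spermatogonia in the foetal testis. They are Eef1a1 and Eef2 (translation elongation), Hsp90ab1 and Hspa8 (chaperones), Tubb5, Tuba1b and Actb (cytoskeleton), Gapdh (glycolysis), Calm3 (calcium signalling) and Rpn1 (protein glycosylation). These are 10 of 21779 protein-coding genes examined. They were picked by name, with the peaks of this library already known, and their peaks were those that overlapped the gene span or lay within 2 kb of it. That rule found 16 of the 108395 peaks, at 9 of the 10 genes.

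The samples were 1 library captured by 5hmC-Seal, in which a biotin-tagged glucose marks 5hmC for streptavidin capture, and 1 library of the same DNA before capture. Both came from wild-type cells of E17.5 embryos, with 30000 frozen cells pooled from several embryos and 50 ng of DNA taken for enrichment, and both are labelled batch 1. The values below come from the list of broad peaks of the captured library. There is no replicate and the depth is unknown, so no difference between samples was tested and every value describes this library. The file holds no RNA, so neither the expression of these genes nor the identity of the cells could be checked in it.

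5hmC is made from 5-methylcytosine by TET enzymes and lies mostly where cytosine is followed by guanine (CG). In many mammalian cell types it is found along the bodies of transcribed genes, while CG-rich promoters, usually free of methylation, carry little of it. Elongation factors carry transfer RNA to the ribosome and move the ribosome along the message. HSP90 and HSC70 fold and hold client proteins, and tubulins and actins polymerise into microtubules and filaments.

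The peaks in these genes were mostly single, wide blocks that lay inside the gene. All peaks that overlapped a span ended within it, in 9 of 9 genes with such a peak. The background was 87.5% of 13417 protein-coding genes with a span peak, so lying inside the gene was common in general. It was 47.3% of the 264 genes with at least 50% of their span covered, a coverage that only 5 of the 9 reached. In 8 of the 9 genes the span held exactly 1 peak, against 52.9% of the 4866 protein-coding genes of the same length range (2962 to 20832 bp) with a span peak. Rpn1, the exception, held 5, and its length alone sets the upper end of that range. The 8 genes with 1 peak were 3272 to 8654 bp long, so this background is not matched to their length.

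**Figure D1:**
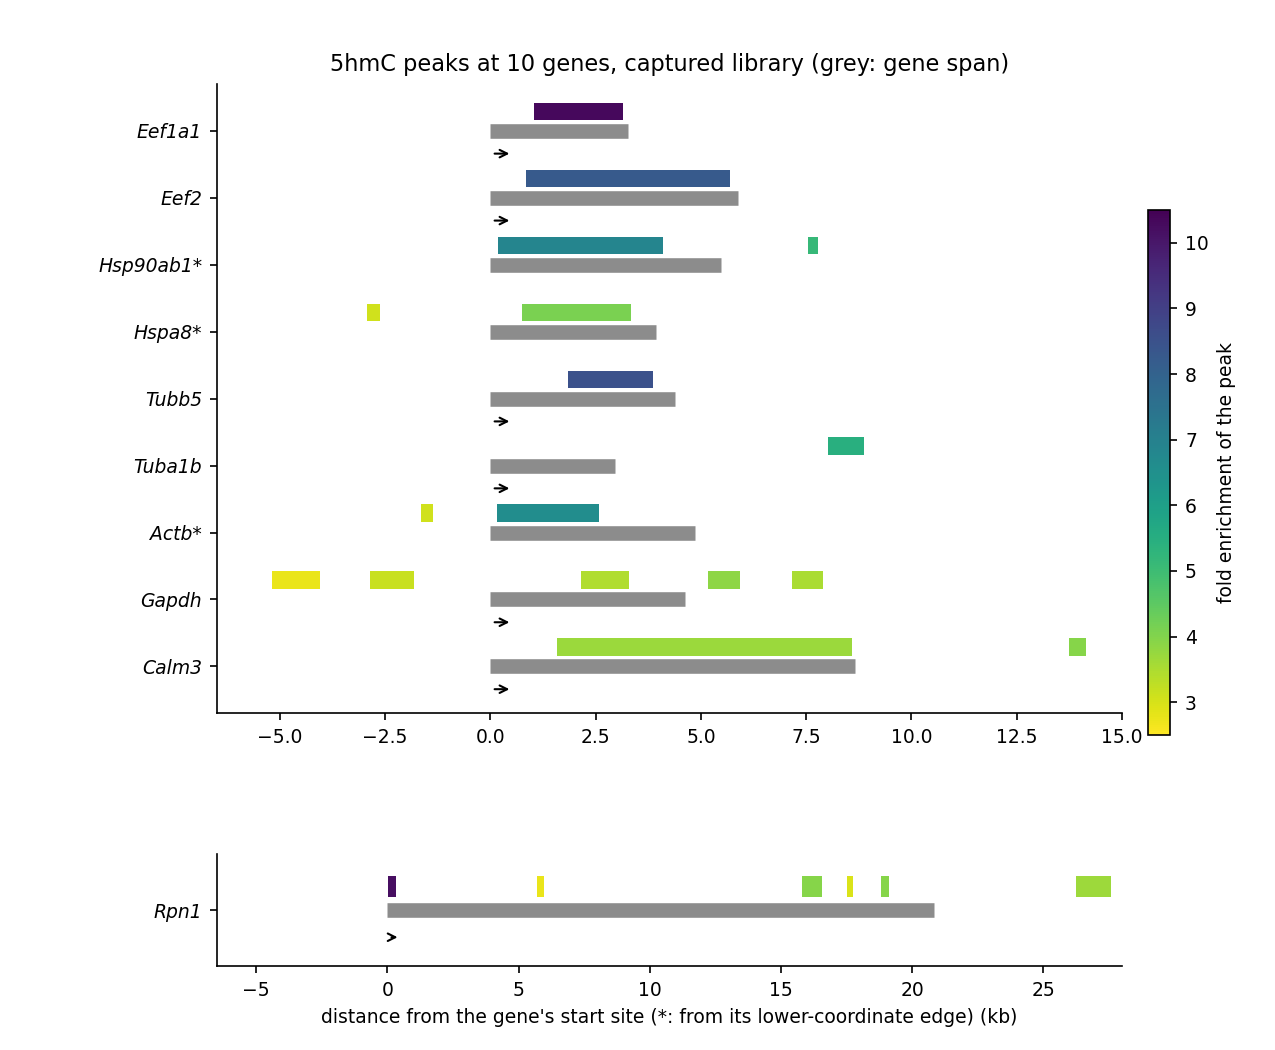
Peaks (coloured by fold enrichment) above the span of each of the 10 genes (grey), to 6 kb on each side, in kb from the start site (arrow) or, for the 3 genes with an asterisk, from the edge with the lower coordinate. Eef1a1, Eef2, Tubb5 and Calm3 each have 1 block in the span that begins 854 to 1850 bp after the start site. Tuba1b has no peak in its span or within 2 kb, and the strongest peak of Rpn1 sits at its start.

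The promoters of 5 of these genes are shown to compare those of 3 genes with strong blocks (Eef1a1, Eef2 and Tubb5), of Tuba1b, which had no peak, and of Rpn1, whose window was touched by one. RefSeq promoter windows (build GRCm38.p6, the same as mm10) run from 250 bases before to 50 after a start site and were matched for 7 genes, so the strand of those 7 is known. Hsp90ab1, Hspa8 and Actb are described by their lower and higher coordinates. The 250 bases before the start are printed 5′ to 3′ on the strand of the gene, with each CG dinucleotide in capitals.
Eef1a1: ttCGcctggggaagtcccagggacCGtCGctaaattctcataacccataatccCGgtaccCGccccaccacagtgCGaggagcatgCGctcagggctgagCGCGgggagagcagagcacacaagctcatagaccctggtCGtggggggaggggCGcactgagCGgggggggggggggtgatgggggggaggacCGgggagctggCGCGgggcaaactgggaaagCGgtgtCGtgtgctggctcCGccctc
Eef2: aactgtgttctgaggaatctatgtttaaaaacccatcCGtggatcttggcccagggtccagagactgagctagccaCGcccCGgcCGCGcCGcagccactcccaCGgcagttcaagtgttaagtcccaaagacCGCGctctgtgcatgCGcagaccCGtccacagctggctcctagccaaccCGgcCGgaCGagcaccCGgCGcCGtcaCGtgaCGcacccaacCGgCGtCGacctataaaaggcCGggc
Tubb5: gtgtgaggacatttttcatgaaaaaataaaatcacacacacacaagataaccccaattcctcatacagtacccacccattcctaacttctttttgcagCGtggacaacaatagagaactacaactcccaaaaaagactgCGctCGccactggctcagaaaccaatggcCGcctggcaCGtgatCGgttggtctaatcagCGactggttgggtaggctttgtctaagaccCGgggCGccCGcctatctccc
Tuba1b: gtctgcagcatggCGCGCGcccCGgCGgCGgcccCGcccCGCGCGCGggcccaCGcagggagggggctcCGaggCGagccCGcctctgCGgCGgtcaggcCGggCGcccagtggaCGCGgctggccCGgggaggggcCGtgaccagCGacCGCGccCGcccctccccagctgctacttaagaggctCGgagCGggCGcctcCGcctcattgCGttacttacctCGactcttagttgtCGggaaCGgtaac
Rpn1: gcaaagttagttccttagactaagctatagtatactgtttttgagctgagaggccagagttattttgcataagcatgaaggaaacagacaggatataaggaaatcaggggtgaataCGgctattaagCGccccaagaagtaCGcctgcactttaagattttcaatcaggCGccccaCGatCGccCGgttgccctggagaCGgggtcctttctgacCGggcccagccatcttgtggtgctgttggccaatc
The stretches are chr9:78481725-78481974 (minus strand) for Eef1a1, chr10:81176381-81176630 (plus) for Eef2, chr17:35838302-35838551 (minus) for Tubb5, chr15:98934391-98934640 (minus) for Tuba1b and chr6:88084223-88084472 (plus) for Rpn1.

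Of the 7 promoter windows, 1 was touched by a peak, that of Rpn1, over 25 bases. The background was 4.01% of 21263 windows of protein-coding genes, and 33.3% of 225 windows of genes with at least 50% of the span covered. The 3 genes of that high coverage with a matched window, Eef1a1, Eef2 and Calm3, had no peak in it. The 250 upstream bases held 35 CG dinucleotides in Tuba1b, 33 in Calm3, 23 in Eef2, 18 in Eef1a1, 10 in Tubb5, 9 in Rpn1 and 8 in Gapdh, where the median of all windows was 10. The window touched by a peak was thus one of the 3 at or below that median, and the other two, of Tubb5 and Gapdh, were untouched.

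Promoter motifs differed between these windows. On both strands of the 250 bases, the GC box GGGCGG (or CCGCCC) occurred 2 times each in Eef1a1 and Tuba1b, and was in 42.6% of all windows. TATAAA (or TTTATA) occurred 1 time in Eef2 and was in 11.6% of all windows. CCAAT (or ATTGG) occurred 2 times in Tubb5 and 1 time in Rpn1, against 35.4% of all windows. Matches of these motifs did not overlap each other in the 7 windows, and Gapdh and Calm3 had none of the 3.

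The elongation factor genes each carried 1 block over 2 kb wide at a fold over 8, as did Tubb5. Eef1a1, which delivers aminoacyl-transfer RNA to the ribosome, lies on chromosome 9 from 78478453 to 78481724 (minus strand, 3272 bp). Its 1 peak, from 78478576 to 78480679, was 2104 bp wide with a fold enrichment of 10.3 and a −log10 q of 19.6, and ranked 125 of all peaks by fold. It began 1045 bp after the start site, stopped 123 bp before the other end of the gene and covered 64.3% of the span. The block therefore filled the downstream part of the gene and left the CG-rich promoter printed above bare.

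Eef2, which moves the ribosome by a codon at each step, lies on chromosome 10 from 81176631 to 81182509 (plus strand, 5879 bp). Its 1 peak, from 81177485 to 81182318, was 4834 bp wide with a fold of 8.28 and a −log10 q of 12.6. It began 854 bp after the start site and stopped 191 bp before the end. With 82.2% of the span covered, the gene ranked 48 of 21779 protein-coding genes. The peak also contains the small nucleolar RNA gene Snord37, which lies within Eef2.

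The chaperone genes were covered to a similar extent at unequal strength. Hsp90ab1, the constitutive cytosolic HSP90, lies on chromosome 17 from 45567778 to 45573261 (5484 bp). A peak of 3909 bp from 45567957 to 45571865, with a fold of 6.86 and a −log10 q of 12.2, covered 71.3% of it. The peak stopped 179 bp from the lower edge of the gene and 1396 bp from the higher one, so it was off centre. A further narrow peak of 237 bp and fold 5.13 fell 56 bp outside the 2 kb limit on the higher side and was not counted.

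Hspa8 encodes HSC70, the constitutive HSP70 of the cytosol, and lies on chromosome 9 from 40801276 to 40805202 (3927 bp). Its peak from 40802026 to 40804621 was 2596 bp wide and covered 66.1%, at a fold of 4.12 and a −log10 q of 3.26. It was nearly centred, at 750 bp from the lower and 581 bp from the higher edge. The small nucleolar RNA genes Snord14c and Snord14d, which lie within Hspa8, were under this peak. A peak of fold 3.07 lay 635 bp outside the 2 kb limit.

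The cytoskeletal genes differed most among themselves. Tubb5, a β-tubulin, lies on chromosome 17 from 35833920 to 35838301 (minus strand, 4382 bp). Its peak from 35834441 to 35836451 was 2011 bp wide with a fold of 8.51 and a −log10 q of 13.3, and covered 45.9%. The first 1850 bp after the start site and the last 521 bp of the gene were free of peaks.

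Tuba1b, an α-tubulin, lies on chromosome 15 from 98931429 to 98934390 (minus strand, 2962 bp) and had no peak in its span or within 2 kb. The nearest, of fold 5.45, was 5054 bp past its downstream end. It is the shortest of the 10 genes and has the promoter with the most CG of the 7 windows. Absence from the list means that no call was made there at the threshold of the caller, a −log10 q of about 1.01.

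Actb, β-actin, lies on chromosome 5 from 142903115 to 142907976 (4862 bp). Its peak from 142903268 to 142905693 was 2426 bp wide with a fold of 6.60 and a −log10 q of 8.11, and covered 49.9%. The peak began 153 bp from the lower edge of the gene and left the last 2283 bp on the higher side bare. A peak of 299 bp and fold 3.09 lay 1358 bp below the gene, inside the 2 kb limit. That flanking peak lies within the non-coding gene Gm38733, which also overlaps the span peak by 248 bp.

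Gapdh, the glycolytic dehydrogenase, lies on chromosome 6 from 125161852 to 125166467 (minus strand, 4616 bp) and differed from the blocks above. Its span peak, from 125163177 to 125164305, was 1129 bp wide with a fold of 3.45 and a −log10 q of 1.98, and covered 24.5%. It left 2162 bp on the upstream side and 1325 bp on the downstream side bare. The start site of its RefSeq promoter window lies 694 bp inside the upstream edge, so the peak began 1468 bp after that site. Peaks of fold 3.86 and 3.18 lay 558 and 1807 bp outside the gene, within its neighbours Iffo1 and Ncapd2. The fold of the span peak was near the median of all peaks, 3.35.

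Calm3 encodes calmodulin, the calcium sensor, and lies on chromosome 7 from 16915379 to 16924032 (minus strand, 8654 bp). It had the widest peak of the 10 genes, 7010 bp from 16915450 to 16922459, which ranked 210 of all peaks by width. The peak began 1573 bp after the start site, stopped 71 bp before the end and covered 81.0%. Its fold of 3.70 and −log10 q of 2.46 were the lowest among the peaks of at least 2 kb in the 10 genes. The fold was still above the median of all peaks, 3.35. The peak overlapped the non-coding gene Gm45972 by 787 bp.

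Rpn1 encodes ribophorin I of the oligosaccharyltransferase and lies on chromosome 6 from 88084473 to 88105304 (plus strand, 20832 bp). Cut into 10 equal bins from the start, it was 14.3% covered in bin 1 and 36.9% in bin 8. Only the outer gaps of Rpn1 had the reverse order, with the shorter one at the start. Its strongest peak, from 88084498 to 88084794, began 25 bp after the start site and was only 297 bp wide, at a fold of 10.2 and a −log10 q of 15.5. The other 4 peaks had folds from 2.76 to 3.96 and widths from 227 to 768 bp, and the last ended 1696 bp before the end of the gene. All 5 together covered 9.02% of the span.

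**Figure D2:**
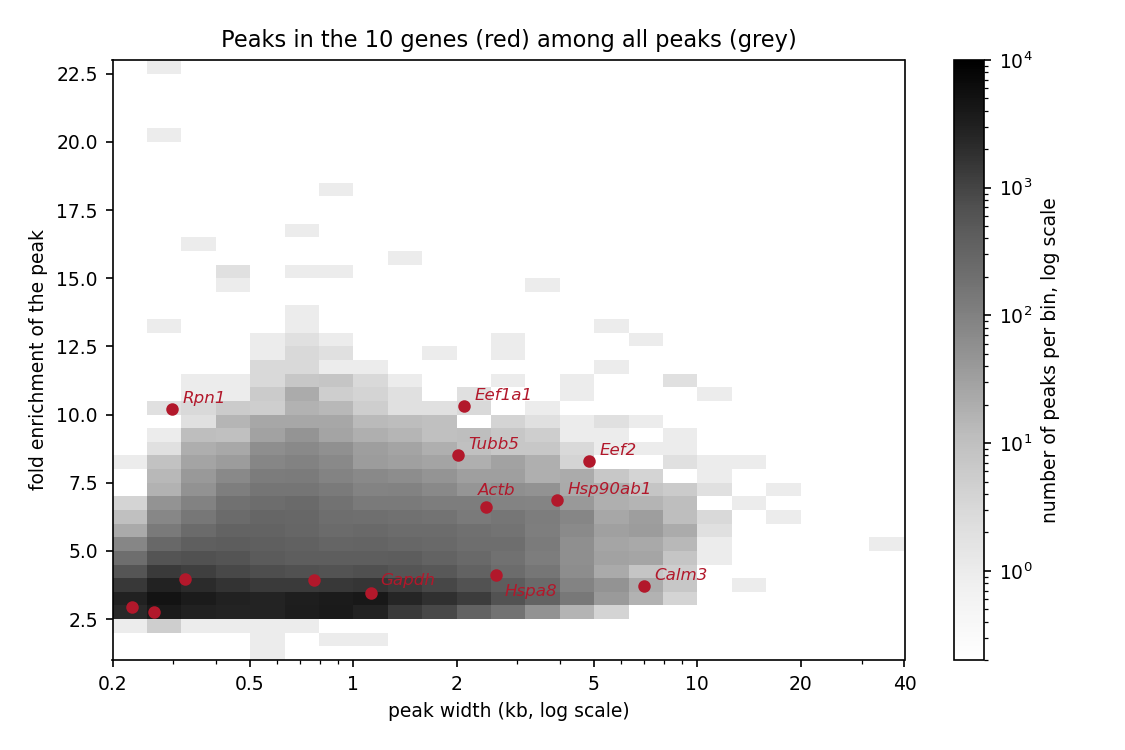
Fold enrichment against width (kb, log scale) of the 13 peaks in the spans of the 10 genes (red; the 4 unlabelled points are the weaker peaks of Rpn1) over the number of all peaks per bin (grey, log scale). Eef1a1, Eef2 and Tubb5 stand at widths over 2 kb and folds over 8. Calm3 is wide at a fold of 3.70, and the labelled peak of Rpn1 is narrow and strong.

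The wide peaks of Eef1a1, Eef2, Hsp90ab1, Tubb5 and Actb had folds of 6.60 to 10.3. That of Hspa8, 2596 bp wide, had a fold of 4.12. Calm3 was wider at a lower fold, and the first peak of Rpn1 was narrow at a high one. The 13 span peaks had a median width of 2011 bp and a median fold of 4.12, where all peaks had 636 bp and 3.35. A width of at least 2 kb together with a fold of at least 8, limits chosen after the values were seen, was found in 160 peaks, 0.148% of the list. Of these 160, 3 were the peaks of Eef1a1, Eef2 and Tubb5, and 38 (23.8%) had their midpoint in a protein-coding gene. No such share was computed over all peaks, so nothing is read from the 23.8%. The peaks were part of the choice of genes, so these values only describe them.

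Coverage of the span by peaks ranged from 0% in Tuba1b to 82.2% in Eef2, with a median of 57.1%. The median was 2.25% over all protein-coding genes and 3.36% over the 8669 of 2962 to 20832 bp, the length range of the 10 genes. At least 50% of the span was covered in 5 of the 10, namely Eef2, Calm3, Hsp90ab1, Hspa8 and Eef1a1, against a background of 1.21% (264 of 21779 genes; exact Clopper-Pearson 95% interval 1.07 to 1.37, counting error only). In that length range the share was 1.79% (1.52 to 2.09). Actb, at 49.9%, and Tubb5, at 45.9%, stood just below the limit. A coverage of at least 75% was found in 2 of the 10, Eef2 and Calm3, against 0.275%, and one of at least 25% in 7, against 7.40%. When peaks with a −log10 q of at least 3 were kept, 4 of the 10 had 50% or more covered, against 0.234%, and with at least 5 it was 3, against 0.106%. The median coverage of the 10 was then 47.9% and 23.7%. A peak in the span or within 2 kb, found at 9 of 10, was frequent in general (66.0% of protein-coding genes, and 62.3% of those in the length range). The genes were chosen partly on this coverage, so nothing is read from the counts.

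Compared with the gene edges, the blocks were shifted away from the start site. Of the 6 genes with a known strand and a span peak, 5 had a longer stretch without peaks at the start (5′ gap) than at the other end (3′ gap), Rpn1 being the exception. The background was 61.1% of 10644 protein-coding genes with a strand and a span peak. It was 61.5% of the 208 with at least 50% of the span covered, where the 3 genes counted here (Eef1a1, Eef2 and Calm3) were all of this kind. The median 5′ gap of the 6 was 1309 bp (25 to 2162) and the median 3′ gap 356 bp (71 to 1696). In the 208 highly covered genes the medians were 616 and 145 bp. The count of 5 of 6 was not tested against the background.

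Peak edges came closest to gene edges on 1 side of the gene. In 6 of the 9 genes with a span peak, an outer peak edge lay within 200 bp of a gene edge (Eef1a1, Eef2, Hsp90ab1, Actb, Calm3 and Rpn1), against 8.30% of 13417 genes with a span peak. Both outer edges lay within 1 kb of the gene edges in 2, Eef2 and Hspa8, against 1.65% of all protein-coding genes. The nearer edge was the downstream one in Eef1a1, Eef2 and Calm3 and the start in Rpn1. The backgrounds were not matched for length or coverage. The 10 genes had a median length of 4739 bp, against 17217 bp over all protein-coding genes, and were chosen partly on their coverage. The part of length and coverage in these counts was not tested, so the counts only describe the 10.

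**Figure D3:**
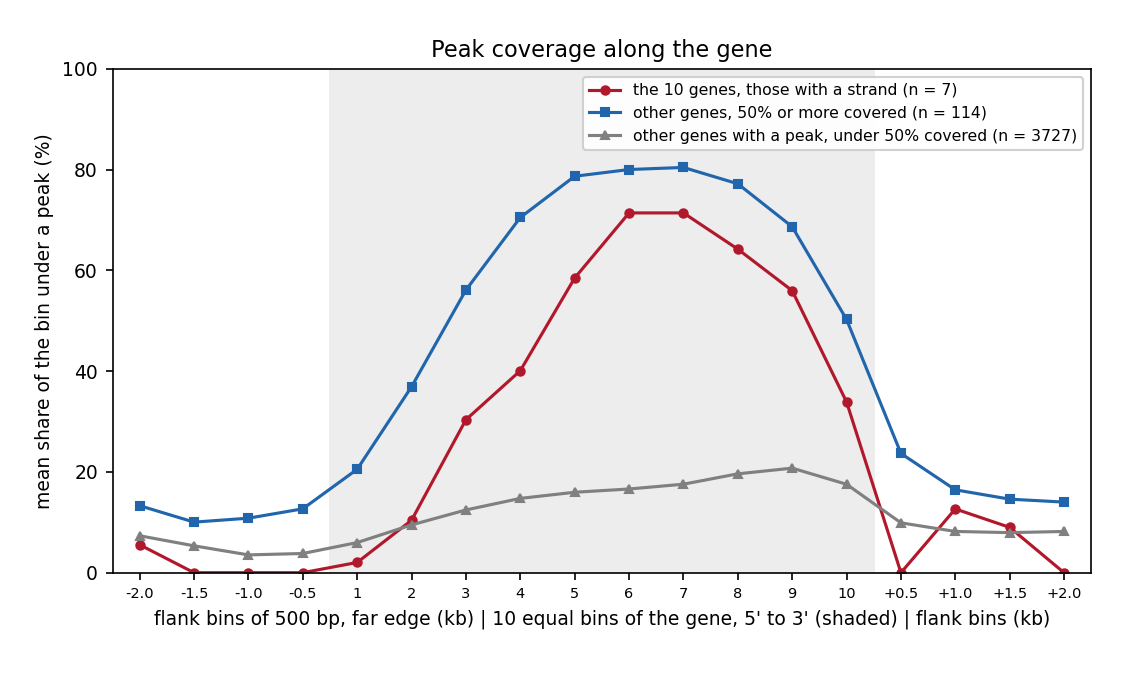
Mean share (%) of each bin under a peak, in 10 equal bins of the gene from 5′ to 3′ (shaded) and in 500 bp bins of the flanks, for the 7 of the 10 genes with a known strand (red), 114 other protein-coding genes with at least 50% covered (blue) and 3727 with a peak but less covered (grey), all of 2962 to 20832 bp. The red line rises from 2.04% in bin 1 to 71.4% in bins 6 and 7 and falls to 33.9% in bin 10, and the red flank values come from Gapdh alone.

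With each gene cut into 10 equal bins, mean coverage of the 7 genes with a strand was 2.04% in bin 1 at the start, from Rpn1 alone, and 71.4% in bins 6 and 7. In bin 10 it was 33.9%, and in the 500 bp on either side of the gene it was 0%. The 114 other highly covered genes of the same length range had 20.5% in bin 1, 80.5% in bin 7 and 50.3% in bin 10, with 12.7% and 23.7% in the adjoining 500 bp. In both groups bin 1 was the least covered of the 10. In the 3727 less covered genes the highest value, 20.8%, stood in bin 9 and bin 1 had 5.98%.

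Related genes from 10 lists (137 genes beside the 10) were mostly covered less broadly than the 10. The 10 were chosen partly on their coverage, so nothing is read from that difference. At least 50% coverage was found in 3 of them (2.19%), near the background of 1.21%, and at least 25% in 22 (16.1%), against 7.40%. Of the 137, 97 (70.8%) had a span peak, against 61.6% of all protein-coding genes. Their median coverage was 6.33%, against 2.25% over all protein-coding genes; the lists were chosen with earlier results known, and no test was made. The 3 were Fkbp4 (56.8%), a cochaperone of HSP90, Eif3g (52.2%), a subunit of the initiation factor eIF3, and Hsp90aa1 (52.1%), the inducible cytosolic HSP90.

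Close relatives of the 10 genes differed in coverage. Hsp90aa1 had a top fold of 6.70, close to the 6.86 of Hsp90ab1, and its peaks reached to 4 bp from its lower edge. Tubb4b, a β-tubulin like Tubb5, had 37.2% covered at a fold of 6.66, with a 5′ gap of 1428 bp and a 3′ gap of 169 bp. Actg1, the other cytoplasmic actin, had 29.4% at a fold of 3.27, against 49.9% and 6.60 in Actb.

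The relatives named next had between 0% and 15.9% of their span covered. Other tubulin, actin and HSP70 genes, some of them covered more, are given with their lists below. Eef1a2, the elongation factor 1α of nerve and muscle, had 7.59% covered at a fold of 3.33. Calm2, which encodes the same protein as Calm3, had 5.79% from 1 peak. Rpn2, the partner of Rpn1, had 4.92%, Tuba1c had 15.9%, and Tuba1a, like Tuba1b, had 0%.

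**Figure D4:**
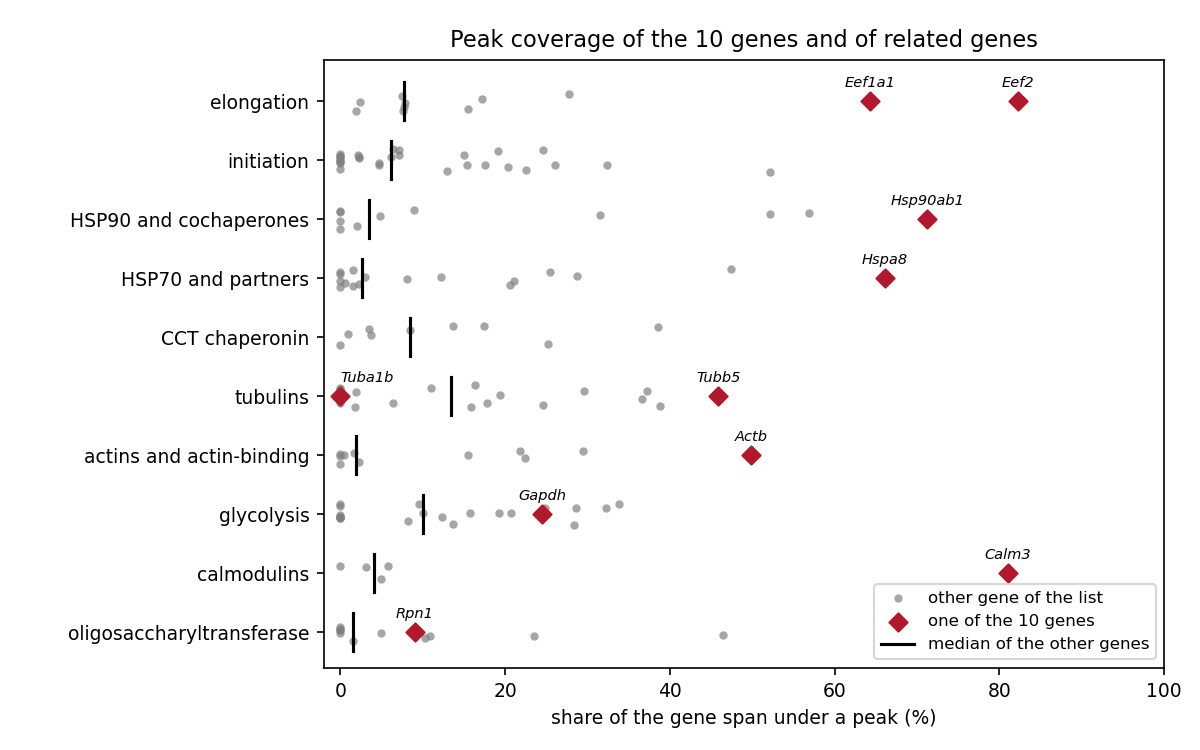
Share (%) of the gene span under a peak for the 10 genes (red diamonds) and the other genes of each list (grey points, spread vertically at random; black bar, their median). Eef1a1, Eef2, Hsp90ab1, Hspa8, Tubb5, Actb and Calm3 lie to the right of all other genes of their list, while Tuba1b, Gapdh and Rpn1 do not. The 10 were chosen partly on coverage, so nothing is read from their place.

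In the single lists, counts of genes with a span peak are to be read against the 61.6% of all protein-coding genes, and medians against 2.25%. In translation, the other 9 elongation genes all had a span peak, with a median coverage of 7.69% and none at 50%. The highest were Eef1d (27.7%) and Eef1g (17.1%), subunits of the exchange factor that recharges eEF1A, and Eif5a (15.5%), which helps the ribosome past proline stretches. Of 29 initiation genes 20 had a span peak, with a median of 6.12%; after Eif3g came Eif3i (32.4%) and Eif3k (26.0%), also subunits of eIF3.

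Among chaperones, 6 of the other 10 genes of HSP90 and its cochaperones had a span peak, including the kinase cochaperone Cdc37 at 31.5%. For HSP70 and its partners it was 12 of 16, led by Hspa5 at 47.4%, the HSP70 of the endoplasmic reticulum, Hsph1 at 28.7% and Dnajb1 at 25.4%. The peak of Hspa5 had a 5′ gap of 2095 bp and a 3′ gap of 239 bp. In the CCT chaperonin, which folds actin and tubulin, 8 of 9 genes had a span peak, with Tcp1 at 38.6%, Cct2 at 25.2% and Cct7 at 17.4%.

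Among tubulins, 13 of 18 other genes had a span peak and the median was 13.4%. The α-tubulin genes Tuba3b (38.8%) and Tuba3a (36.6%) had peaks that reached past their start by 335 and 263 bp, unlike Tubb5. Of 10 other actin and actin-binding genes 7 had a span peak. Acta1 had 22.4% and Actc1, where the peak ran 1767 bp past the start, had 21.8%.

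In glycolysis, 13 of 21 genes beside Gapdh had a span peak, led by Ldhb (33.8%) and Ldha (32.2%), of lactate dehydrogenase, and the hexokinase gene Hk2 (28.6%). Pfkl (28.4%) and Aldoa (24.8%), named after their values were seen, also stood above Gapdh. In the calmodulin list Calml4 had 4.92%. For the oligosaccharyltransferase it was 6 of 11, with Krtcap2 at 46.4%, Ddost at 23.5% and Stt3b, a catalytic subunit, at 10.9%. The peak of Krtcap2 left 2007 bp at its start and 44 bp at its end free.

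The downstream position of the peaks was shared by related genes at about the rate of all genes. Of 81 related genes with a strand and a span peak, 54 (66.7%) had the longer gap at the start, where the background was 61.1%. Among the 19 of them with at least 25% covered, it was 15. No background share was computed at that limit, so nothing is read from this count. At a limit of 50% the background was 61.5% of 208 genes.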

How the data were processed

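The captured library of prospermatogonia has a deposited list of broad peaks on build mm10; the library before capture was not analysed here. Per the submitters' processing notes the tools comprised MACS2 2.1.0, deepTools 3.5.1, bedtools 2.27.1, Bowtie2 2.5.0, SAMtools 1.16.1 and Trim Galore, given without roles or settings. The deposited values are a fold enrichment (a ratio to the background that the peak caller took), −log10 p and −log10 q values and a score for each peak. Whether a control was used and how reads with several matches were treated is not given in the sources used here; both bear on fold and width.

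Gene spans came from a RefSeq table of GRCm38.p6 (49997 genes; 49603 used, without 340 that start in the opening 3 Mb of a chromosome other than Y) and strand from RefSeq promoter windows, for 17492 of 21779 protein-coding genes. The share of a span under peaks, the outer edges of all peaks overlapping it, and peaks within 2 kb were computed with Python 3.11.15 and pandas 2.3.3. The interval functions were tested on simulated data (500 genes, 0 differed from a base-by-base count). All 147 symbols of the 10 related lists were found.

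The 10 genes and the lists were chosen with earlier results of these data known. Named are the 10 genes, the up to 3 other genes of each list with the largest coverage, close relatives, and genes under a peak of the 10; 1 gene that this rule names is not reported here. Alternatives were stricter q thresholds, merged peaks, and other windows, coverage limits and edge distances. Intervals of shares are exact Clopper-Pearson 95% intervals over genes or windows and cover counting error only. Neighbouring genes are not independent. The interval of the median coverage is the range of the 10 values without the lowest and the highest.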

Additional observations from a re-analysis of the deposited data

How the results depend on the processing

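Of 27 alternative values, 15 stayed within 1.5 times of a count or inside the interval of a share or median, and 12 moved further. The median coverage of the 10 genes, 57.1%, was 47.9% with a −log10 q of at least 3 and 23.7% with at least 5. It was counted as inside its interval only because 10 genes give a wide one, 9.02% to 81.0%. That interval is the range of the 10 values without the lowest and the highest. The genes were chosen, so it measures no sampling error, and the fall to 23.7% is a large one. With a −log10 q of at least 3, 0.234% of protein-coding genes and 1 related gene had 50% or more covered, while the 10 genes went from 5 to 4, since Calm3 lost its peak. With at least 5, 0.106% of protein-coding genes, 0 related genes and 3 of the 10 (Eef1a1, Eef2 and Hsp90ab1) had it, and 1 of the 10 had both outer edges within 1 kb. Eef1a1, Eef2, Hsp90ab1, Tubb5 and Actb had the same coverage at all 3 thresholds; Calm3 and Gapdh had none from 3 on and Hspa8 none at 5. A coverage limit of 75% gave 2 of the 10 and 0.275% of genes, and one of 25% gave 7.40% of genes. With edges compared at 500 bp, 0 of the 10 matched at both ends, and at 2 kb 7 did. The length range of the 10 genes gave 1.79% of genes. Merging peaks and the width of the window moved none of these values that far. The movements follow from fewer peaks or other limits. No paired analysis was possible because only 1 library has a file used here. The depth is unknown, so peaks lost at a stricter threshold, such as that of Calm3, and the absence of a peak at Tuba1b, cannot be given an error.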

Other observations

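Across the promoter windows of the 17492 protein-coding genes that had one, peaks were rarer at windows with many CG dinucleotides. Of 10650 windows with at least 10 CG in the 250 upstream bases, the median, 0.742% (exact 95% interval 0.588 to 0.924) were touched by a peak. Of 10613 windows with fewer, 7.29% (6.81 to 7.80) were. The limit was chosen after the values were seen, and several windows can belong to 1 gene. Of the 7 matched windows of the 10 genes, 5 had at least 10 CG and none of the 5 was touched, and of the 2 with fewer, that of Rpn1 was touched and that of Gapdh was not.

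Pseudogenes named after the 10 genes were looked up after the data had been seen. Of 7, 3 had a peak in their span, where 18.2% of the 9854 pseudogenes of the table had one. Eef2-ps2 on chromosome 4 (143241827 to 143243368) was 84.0% covered by a peak of fold 4.05. Eef1a1-ps1 on chromosome 19 (17926557 to 17928613) was 46.1% covered at a fold of 5.36, and Gapdh-ps15 on the Y 25.3% at 4.16. Eef1a1-ps2, Gapdh-ps14, Gapdh-ps16 and Actb-ps1 had no peak. No source used here states how reads shared by a gene and its copies were placed, and their part in the peaks of Eef1a1, Eef2 and Gapdh was not tested.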
